A study of Homo sapiens with 6 samples.

Results

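Semaphorins, their plexin receptors and the neuropilin co-receptors were followed in MDA-MB-231 cells, an established human line of triple negative breast cancer, after USP32 was depleted with an siRNA. The members were all listed genes whose symbol was SEMA followed by a digit, any PLXN gene, NRP1 and NRP2. This gave 31 of the 17646 genes listed, namely 7 secreted class 3 semaphorins, 13 membrane semaphorins of classes 4 to 7, 9 plexins and 2 neuropilins. RNA was measured by sequencing in 3 libraries of cells transfected with the USP32 siRNA (siUSP32) and 3 of cells transfected with a control siRNA (siControl), each for 48 h. Both groups therefore underwent transfection, both came from 1 cell line, and no second siRNA against USP32 was analysed here. Whether libraries with the same siRNA were made from separate cultures is not stated, so p-values speak only to the spread among these 6 libraries and that spread may be technical.

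Semaphorins are extracellular guidance proteins that share a sema domain. The class 3 proteins are secreted and mostly need a neuropilin to hold them on a plexin A or plexin D receptor, whereas SEMA3E binds plexin D1 directly. Classes 4, 5 and 6 span the membrane, SEMA7A is held by a lipid anchor, and these bind plexins or, for SEMA7A, also an integrin. The cytoplasmic part of a plexin carries a GTPase-activating domain for Rap and R-Ras proteins, and signalling through it reshapes actin and adhesion. The neuropilins also bind vascular endothelial growth factors. In breast tumour cells these genes have been studied for cell migration, invasion and vessel growth.

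The values were FPKM, fragment numbers scaled to transcript length and to the fragments mapped in the library, so levels of different genes can be set side by side per length. USP32 itself averaged 1.96 ± 0.0723 FPKM in siUSP32 and 7.77 ± 0.479 FPKM in siControl libraries (SD, n = 3 each, as for all means below), a 3.96-fold fall (limma adjusted p = 8.57e-08). The FPKM of all genes summed to 855573 to 948641 in siUSP32 and to 686376 to 694831 in siControl, and the groups did not overlap. Across tested genes, log2 values correlated at 0.994 to 0.998 within siUSP32, at 0.997 to 0.998 within siControl and at 0.931 to 0.943 between the groups. The line's 6 listed mesenchymal markers were present in both groups, with the vimentin gene VIM at 1658 ± 49.5 and 1085 ± 11.0 FPKM and CD44 at 135 ± 3.83 and 425 ± 1.89 FPKM in siUSP32 and siControl. The mean was higher in siUSP32 for 2 of them, VIM and MSN, and lower for 4. Besides CD44 these were AXL (16.7 and 64.5 FPKM), SPARC (136 and 549 FPKM) and FN1 (10.6 ± 1.05 and 421 ± 5.36 FPKM). FN1 had the most negative difference of all tested genes. Of 5 listed luminal markers, ESR1 and CDH1 were at 0.50 FPKM or lower on average in both groups. EPCAM averaged 4.24 ± 0.530 FPKM in siUSP32 and 10.5 ± 1.38 FPKM in siControl, FOXA1 2.72 ± 0.192 and 2.47 ± 0.131 FPKM, and GATA3 0.727 ± 0.0551 and 1.12 ± 0.131 FPKM, and the summed level was 7.27 to 8.65 FPKM in siUSP32 and 14.1 to 16.8 FPKM in siControl. The leukocyte gene PTPRC averaged 0.00667 FPKM in siUSP32 and was listed at 0 in every siControl library. CD14, another leukocyte gene, was present, at 4.98 ± 0.466 FPKM in siUSP32 and 7.51 ± 0.725 FPKM in siControl. Of 13 listed markers of other cell types, the fibroblast gene LUM had the highest level, 7.75 ± 0.443 FPKM in siUSP32 and 32.0 ± 0.684 FPKM in siControl, and the summed level was 16.2 to 16.4 FPKM in siUSP32 and 45.8 to 46.9 FPKM in siControl. Their part in the results was not tested.

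The summed level of the 31 genes was 51.1, 50.5 and 50.9 FPKM in the siUSP32 libraries, against 215, 216 and 220 FPKM in the siControl libraries. The mean was lower in siUSP32 for each of the 31 genes, and for 27 of them no siUSP32 library reached the lowest siControl library. Over all listed genes 57.1% had a lower mean and 37.2% were lower without overlap. The test, limma on log2(FPKM + 1), was run on the 12003 genes with a mean of at least 1 FPKM over the 6 libraries, and calls were made at p under 0.05 after Benjamini-Hochberg adjustment. Of the 20 members that passed this filter, 20 were called lower and 0 higher, beside 41.3% lower and 33.3% higher of all genes tested. A called log2 difference of -1 or below was found for 15 of the 20, beside 10.8% of all genes tested. PLXNA2, SEMA3F and SEMA5A passed the filter only through their siControl values, so the count over the 20 describes them and is no support for a direction. Without the filter 25 of the 31 were called lower and 0 higher, beside 33.8% and 23.2% of 17646 genes. In bulk RNA, less of a transcript in every cell and loss of it from some cells cannot be told apart.

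**Figure D1:**
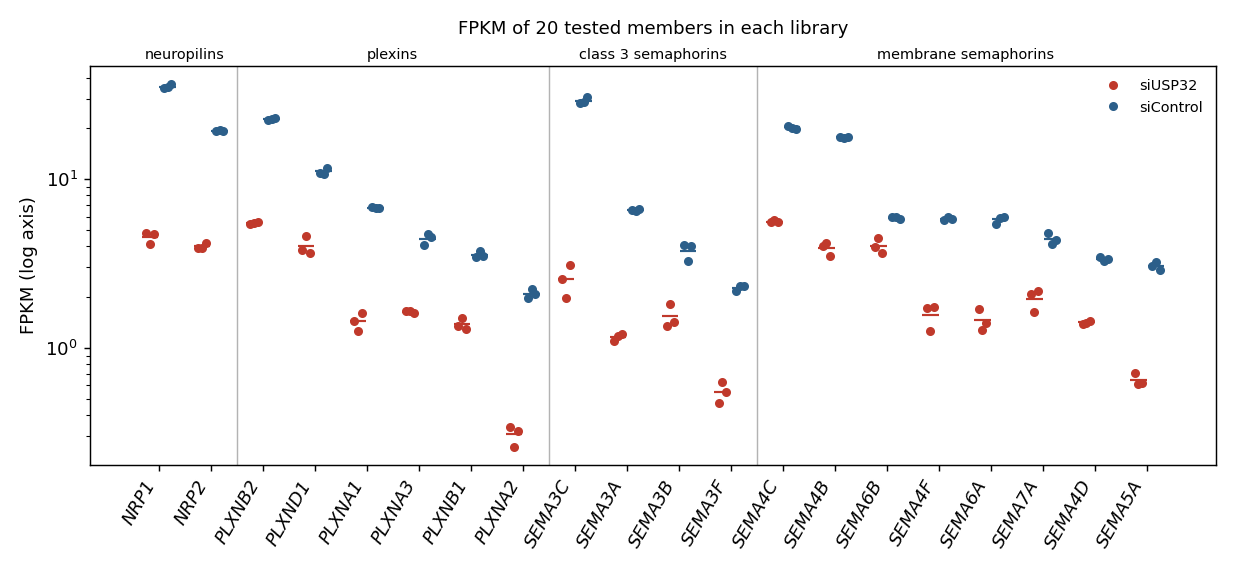
FPKM (log axis) of the 20 tested members, with 1 point per library and a line at each group mean, siUSP32 left of siControl for each gene. For every gene drawn the 3 siUSP32 points lie below the 3 siControl points, and SEMA6B (4.03 and 5.90 FPKM on average) is the gene with the narrowest gap.

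The secreted class 3 semaphorins fell to a class sum of 5.60, 5.61 and 6.39 FPKM in siUSP32, against 41.5, 41.0 and 43.8 FPKM in siControl. SEMA3C, a ligand linked to migration and survival of tumour cells, was at 2.56, 1.97 and 3.11 FPKM in siUSP32 and at 28.3, 28.6 and 30.6 FPKM in siControl. The 3 siUSP32 values were each far below all siControl values. This was an 11.5-fold fall with a log2 difference of -3.10 ± 0.11 (SE, limma adjusted p = 2.17e-08). It ranked 22 among the 12003 tested genes, counted from the most negative difference. SEMA3A, the collapsin that repels axons through neuropilin-1, was at 1.10, 1.17 and 1.21 FPKM in siUSP32 and at 6.57, 6.49 and 6.68 FPKM in siControl. Its groups did not overlap, and the 5.67-fold fall gave a log2 difference of -1.81 ± 0.06 (limma adjusted p = 2.24e-08).

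SEMA3B and SEMA3F, known as candidate tumour suppressors from a region of the short arm of chromosome 3 that is often lost in lung cancer, were lower too. SEMA3B was at 1.35, 1.82 and 1.43 FPKM in siUSP32 and at 4.05, 3.26 and 3.99 FPKM in siControl (2.46-fold, log2 difference -0.91 ± 0.10, limma adjusted p = 3.04e-05). SEMA3F was at 0.47, 0.63 and 0.55 FPKM in siUSP32 and at 2.16, 2.33 and 2.31 FPKM in siControl (4.12-fold, log2 difference -1.08 ± 0.07, limma adjusted p = 1.33e-06). Neither gene's groups overlapped. The 3 remaining class 3 genes were under the filter. SEMA3E averaged 0.0433 FPKM in siUSP32 and 0.173 FPKM in siControl, SEMA3D 0.0300 and 0.0900 FPKM, and SEMA3G 0.00333 and 0.0300 FPKM. They were close to the last decimal of the files, which is 0.01.

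The start regions of SEMA3C and SEMA3F are shown because these 2 genes share a class, a receptor family and the direction of their change, while the sequence around their starts differs. Each run is 250 bases before to 50 bases after the start, from RefSeq on GRCh38.p14, 5′ to 3′ on the strand of the gene, and capitals mark the GC box GGGCGG or its reverse complement CCGCCC. SEMA3C lies at chr7:80922340-80922639 on the minus strand and SEMA3F at chr3:50154808-50155107 on the plus strand.
SEMA3C: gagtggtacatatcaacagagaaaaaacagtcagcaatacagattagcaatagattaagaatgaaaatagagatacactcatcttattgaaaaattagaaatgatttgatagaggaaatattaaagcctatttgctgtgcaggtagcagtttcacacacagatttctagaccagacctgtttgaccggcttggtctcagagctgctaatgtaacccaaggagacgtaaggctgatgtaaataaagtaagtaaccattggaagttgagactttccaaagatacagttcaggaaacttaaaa
SEMA3F: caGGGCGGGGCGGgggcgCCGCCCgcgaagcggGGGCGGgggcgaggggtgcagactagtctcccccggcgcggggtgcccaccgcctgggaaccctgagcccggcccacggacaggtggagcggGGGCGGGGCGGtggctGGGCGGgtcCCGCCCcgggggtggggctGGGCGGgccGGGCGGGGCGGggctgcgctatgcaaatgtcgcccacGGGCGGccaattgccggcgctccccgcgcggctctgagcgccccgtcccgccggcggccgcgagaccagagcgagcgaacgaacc
The SEMA3C window had 36.0% G and C and no GC box, and the SEMA3F window had 81.3% and 12 GC boxes, overlapping ones counted. Of the 31 members 27 had an entry in the promoter table, and NRP1, SEMA3A, SEMA6A and SEMA6B had none. For each gene only the first entry was used. Some windows, such as those of PLXNC1 and SEMA4B, lay well inside the annotated gene. The GC box was in 19 of these 27 (70.4%) and in 44.6% of all 27305 promoters, searched on both strands. The 27305 include genes not listed in these data. The median share of G and C was 65.7% in the member windows and 58.3% in all windows. Whether this base composition accounts for the GC box count was not tested. The TEAD core GGAATG, the motif of the TEAD partners of YAP, was in 2 of the 27, PLXNB3 and SEMA4A (7.41%, beside 14% of all). Both genes were under the filter, so no tested member with an entry held this motif. The AP-1 motif TGACTCA was in 0 of the 27, beside 4.92% of all. A match describes these letters in this window only.

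The composition of the class also differed between the groups. SEMA3C made up 45.7%, 35.1% and 48.7% of class 3 FPKM in siUSP32 and 68.3%, 69.8% and 69.9% in siControl. SEMA3B made up 24.1%, 32.4% and 22.4% in siUSP32 and 9.76%, 7.96% and 9.11% in siControl. These shares are taken within a library and so do not depend on how libraries are scaled, though they would move with a bias by transcript length. The groups did not overlap for either share. A 2-sided exact permutation test returned p = 0.1 for each, the lowest value this number of libraries can reach, and 0.104 after Benjamini-Hochberg adjustment over the 24 shares computed.

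Membrane semaphorins fell to a class sum of 21.9, 21.1 and 20.6 FPKM in siUSP32, against 68.4, 67.7 and 67.3 FPKM in siControl. SEMA4C was the most abundant in both groups, followed by SEMA4B in siControl. In siUSP32 SEMA6B (4.03 ± 0.402 FPKM) and SEMA4B (3.90 ± 0.343 FPKM) came next and were close, with SEMA4B the higher in library 1. SEMA4C, a ligand of plexin B2, was at 5.56, 5.72 and 5.53 FPKM in siUSP32 and at 20.7, 20.1 and 19.9 FPKM in siControl (3.62-fold, log2 difference -1.69 ± 0.06, limma adjusted p = 1.51e-08). SEMA4B was at 4.01, 4.18 and 3.52 FPKM in siUSP32 and at 17.8, 17.6 and 17.7 FPKM in siControl (4.54-fold, log2 difference -1.94 ± 0.07, limma adjusted p = 2.24e-08). Among libraries of a group these genes varied little beside the gap between the groups.

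SEMA4D, the plexin B1 ligand known from immune cells and tumour vessels, averaged 1.41 ± 0.0321 FPKM in siUSP32 and 3.35 ± 0.10 FPKM in siControl, a 2.37-fold fall. SEMA4F fell 3.71-fold to 1.57 ± 0.272 FPKM in siUSP32, against 5.83 ± 0.0874 FPKM in siControl. SEMA6A, a ligand of plexins A2 and A4, fell 3.96-fold to 1.46 ± 0.216 FPKM in siUSP32, against 5.78 ± 0.301 FPKM in siControl. SEMA5A, whose extracellular part carries thrombospondin repeats, fell 4.73-fold to 0.647 ± 0.0551 FPKM in siUSP32, against 3.06 ± 0.155 FPKM in siControl. SEMA7A, the lipid-anchored ligand of plexin C1 and of an integrin, fell 2.26-fold to 1.96 ± 0.294 FPKM in siUSP32, against 4.43 ± 0.348 FPKM in siControl. The limma adjusted p of these 5 genes lay between 3.01e-07 for SEMA5A and 2.42e-05 for SEMA7A, and none had overlapping groups.

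Among the tested members SEMA6B stood closest to its control level. It was at 3.98, 4.45 and 3.65 FPKM in siUSP32 and at 5.98, 5.94 and 5.78 FPKM in siControl, which is 1.47-fold lower, with a log2 difference of -0.46 ± 0.08 (limma adjusted p = 4.40e-04). The groups did not overlap, but the call was lost after quantile normalization (-0.10, limma adjusted p = 0.287) and with a correction for transcript length (-0.11, limma adjusted p = 0.289), within a range of -0.80 to -0.10 over the alternatives in which it was tested. SEMA6B took a larger place in its class, 18.2%, 21.1% and 17.7% of membrane semaphorin FPKM in siUSP32 and 8.74%, 8.78% and 8.59% in siControl (exact permutation p = 0.1, the smallest possible). It had rank 10 among the 31 members in siControl and rank 4 in siUSP32. The 5 membrane genes under the filter were SEMA6C, with 0.463 FPKM in siUSP32 and 1.02 FPKM in siControl, SEMA6D, with 0.0567 and 0.270 FPKM, and SEMA4A, SEMA4G and SEMA5B, each at or under 0.0700 FPKM in both groups and with overlapping values.

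**Figure D2:**
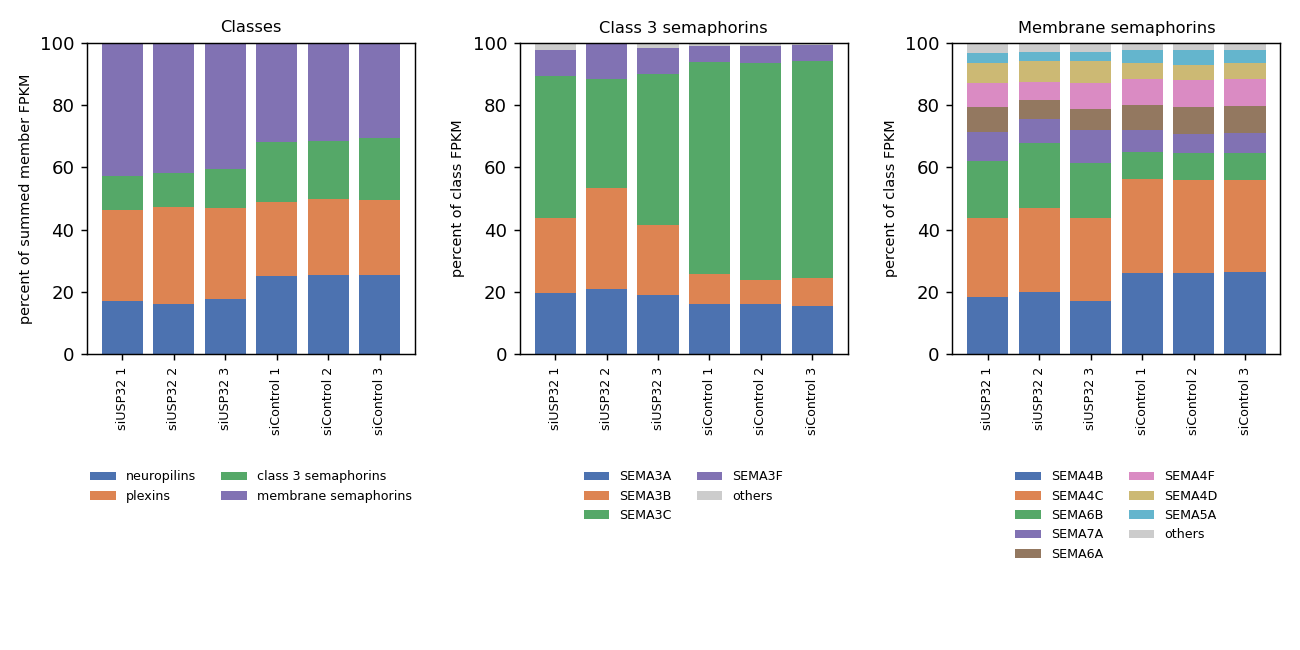
Stacked shares in percent for each library, siUSP32 left of siControl: classes within the summed FPKM of all members, and genes within the class 3 and membrane semaphorins. In siUSP32 the SEMA3C band is narrower (35.1% to 48.7%, against 68.3% to 69.9%) and the SEMA6B band wider (17.7% to 21.1%, against 8.59% to 8.78%).

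Plexins fell to a class sum of 14.95, 15.8 and 14.99 FPKM in siUSP32, against 51.4, 52.6 and 53.4 FPKM in siControl. PLXNB2, a receptor of class 4 semaphorins, was the most abundant, at 5.42, 5.49 and 5.53 FPKM in siUSP32 and at 22.5, 22.7 and 23.0 FPKM in siControl (4.15-fold, log2 difference -1.87 ± 0.05, limma adjusted p = 7.49e-09). PLXND1, the receptor of SEMA3E, was at 3.81, 4.60 and 3.64 FPKM in siUSP32 and at 10.9, 10.7 and 11.7 FPKM in siControl (2.76-fold, log2 difference -1.27 ± 0.08, limma adjusted p = 1.13e-06). The groups did not overlap for either receptor.

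Of the plexin A receptors that pair with neuropilins, PLXNA1 was at 1.44, 1.25 and 1.61 FPKM in siUSP32 and at 6.79, 6.77 and 6.74 FPKM in siControl (4.72-fold, log2 difference -1.68 ± 0.07, limma adjusted p = 8.69e-08). PLXNA2 was at 0.34, 0.26 and 0.32 FPKM in siUSP32 and at 1.97, 2.23 and 2.09 FPKM in siControl, a 6.84-fold lower mean. On the log2(FPKM + 1) scale, which understates low genes, its difference was -1.24 ± 0.07 (limma adjusted p = 4.54e-07), smaller in size than those of PLXNB2, PLXNA1 and PLXND1. PLXNA3 fell 2.71-fold to 1.64 ± 0.0321 FPKM in siUSP32, against 4.44 ± 0.325 FPKM in siControl. PLXNA1 was thus above PLXNA3 in all siControl libraries, and in siUSP32 it was below PLXNA3 or nearly equal to it (1.61 and 1.6 FPKM in library 3). PLXNB1, the SEMA4D receptor, fell 2.58-fold to 1.38 ± 0.115 FPKM in siUSP32, against 3.56 ± 0.151 FPKM in siControl. PLXNC1, with 0.613 FPKM in siUSP32 and 1.12 FPKM in siControl, and PLXNB3, with 0.347 and 0.593 FPKM, were lower without overlap but under the filter. PLXNA4 was at 0.0300 and 0.0567 FPKM, with overlapping groups.

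The neuropilins had the lowest median difference of the 4 classes, -2.37. NRP1, the most abundant member in siControl, was at 4.76, 4.13 and 4.75 FPKM in siUSP32 and at 34.5, 35.2 and 36.4 FPKM in siControl (7.77-fold, log2 difference -2.71 ± 0.07, limma adjusted p = 3.16e-09). It ranked 72 from the most negative difference among tested genes. NRP2, which binds SEMA3F and the lymphatic growth factor VEGF-C, was at 3.92, 3.89 and 4.19 FPKM in siUSP32 and at 19.4, 19.6 and 19.2 FPKM in siControl (4.85-fold, log2 difference -2.03 ± 0.06, limma adjusted p = 7.68e-09). Both genes had groups far apart. NRP1 made up 54.8%, 51.5% and 53.1% of neuropilin FPKM in siUSP32 and 64%, 64.2% and 65.5% in siControl (exact permutation p = 0.1, the smallest possible).

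The 3 larger classes had similar median differences among their tested members, -1.44 for class 3 semaphorins (4 genes), -1.36 for membrane semaphorins (8 genes) and -1.26 for plexins (6 genes), beside -0.06 over all tested genes. The classes were not tested against each other. As shares of summed member FPKM, class 3 semaphorins held 11.5% ± 0.875 in siUSP32 and 19.4% ± 0.484 in siControl, and neuropilins 16.8% ± 0.853 and 25.2% ± 0.170. Membrane semaphorins held 41.7% ± 1.15 in siUSP32 and 31.2% ± 0.615 in siControl, and plexins 30.0% ± 1.10 and 24.2% ± 0.238. For these 4 shares the groups did not overlap (exact permutation p = 0.1, the smallest possible). SEMA4C had the highest level of all members in siUSP32, where NRP1 had rank 3 and SEMA3C rank 8, while NRP1 and SEMA3C led in siControl.

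**Figure D3:**
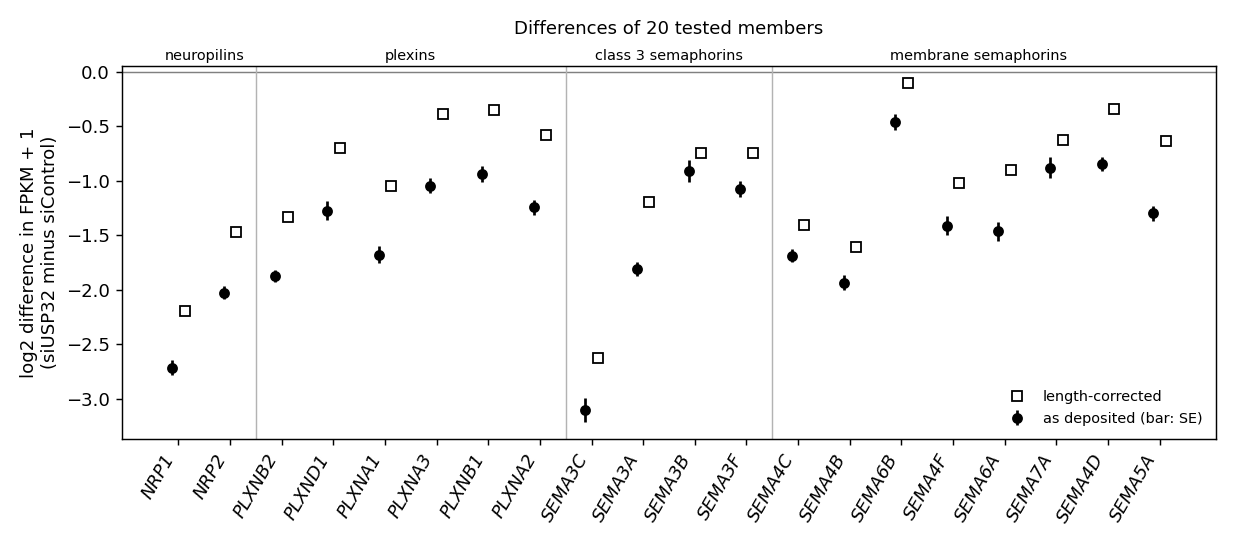
Log2 differences in FPKM + 1 (siUSP32 minus siControl) of the 20 tested members by class, as deposited with SE bars (filled circles) and after the correction for transcript length (open squares). All values lie below 0, between -3.10 for SEMA3C and -0.46 for SEMA6B as deposited, and the length-corrected values are nearer to 0, ending at -0.11 for SEMA6B.

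The members were picked by symbol and shared other features. Most of them belong to families of membrane proteins, so the share with a hydrophobic segment was largely set by that choice. Their annotated transcripts were long, with a median of 6099 bases beside 2945 bases for all genes, and 28 of 31 encoded proteins had a hydrophobic segment (90.3%, beside 38.5% of all genes with a protein). The exceptions were SEMA3A, SEMA3E and SEMA3F. Genes with either feature had negative medians. Of 6099 tested genes within the members' range of transcript length, 2958 to 13786 bases, 58.5% were called lower, with a median of -0.30 (0.13 after the length correction described next). Of 3902 tested genes with a hydrophobic segment, 62.5% were called lower, with a median of -0.43. Of 2115 tested genes with both features, 75.7% were called lower and 7.94% higher, with a median of -0.67 (-0.23 after that correction). The median over the 20 tested members was -1.36, and the range was -3.10 to -0.46.

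A correction of each library for transcript length left 19 of the 20 tested members called lower and 0 higher, beside 28.5% lower and 44.7% higher of 11959 genes. SEMA6B was the gene that lost its call. The class medians became -0.97 for class 3 semaphorins, -0.77 for membrane semaphorins, -0.64 for plexins and -1.83 for neuropilins, beside 0.11 over all genes. The correction moved 10 differences by over 1.5 times. They went to -1.20 for SEMA3A, -0.34 for SEMA4D, -0.64 for SEMA5A, -0.90 for SEMA6A, -0.11 for SEMA6B, -1.05 for PLXNA1, -0.58 for PLXNA2, -0.39 for PLXNA3, -0.35 for PLXNB1 and -0.70 for PLXND1. Among the 20 tested members themselves the difference against log2 transcript length gave Pearson r = -0.08 and Spearman rho = -0.12. These are across genes, which share libraries and are not independent replicates. The log2(FPKM + 1) scale understates low genes, so they cannot show whether the difference depended on length. Against the siControl level on that scale the difference gave r = -0.81 and rho = -0.76. For the log2 ratio of mean FPKM with no pseudocount these were -0.43 and -0.36. The siControl level enters both sides of these correlations, which favours a negative value. They therefore cannot show whether the fall depended on level. With the length correction and no filter, an alternative chosen after seeing the data, 9 members were called higher and 19 lower, beside 41.2% and 27.7% of 17399 genes. The 9 averaged at most 0.347 FPKM in siUSP32 and 0.593 FPKM in siControl, and each had a lower mean in siUSP32.

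Position on the chromosome was examined through the nearest tested gene on each side of each member, a set chosen after the values were seen. Of these 56 neighbours 39.3% were called lower and 42.9% higher, beside 41.3% and 33.3% of all tested genes, with a median difference of 0.09. The neighbours had shorter transcripts than the members, with a median of 2873 bases beside 6099. A hydrophobic segment was present in 35.7% of them, beside 90.3% of the members. Distances reached 3227793 bases, between SEMA3E and ELAPOR2. Whether position played a part was not tested. SEMA3A, SEMA3C, SEMA3D and SEMA3E lie on chromosome 7 between 80742538 and 85186855 (GENCODE 29, GRCh38), and the tested genes around them were CACNA2D1 (log2 difference -1.66), ELAPOR2 (-0.72) and GNAI1 (-0.15, not past the test). SEMA3F and SEMA3B lie on chromosome 3 with GNAI2 between them, which was higher (log2 difference 0.67, limma adjusted p = 6.31e-06). NRP1 (chromosome 10, 33177492 to 33336262, minus strand) lies 171700 bases from ITGB1, the integrin beta-1 gene, which was also lower (-3.69).

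Partners of semaphorin signalling were then compared by where their products act, from lists that were chosen with earlier results of these data known. The counts below stand beside 41.3% lower and 33.3% higher of all tested genes, and beside 62.5% lower among those with a hydrophobic segment. Of 18 listed co-receptors and other cell surface partners 10 passed the filter, and 10 of these were called lower and 0 higher, with a median of -1.66. CD72, a SEMA4D receptor of immune cells that was under the filter, was higher without overlap, at 0.397 ± 0.0751 FPKM in siUSP32 and 0.197 ± 0.0416 FPKM in siControl, and is named after its values were seen. MET, the receptor tyrosine kinase that associates with B plexins, was at 6.90, 6.71 and 7.41 FPKM in siUSP32 and at 38.1, 39.4 and 39.1 FPKM in siControl (5.54-fold). L1CAM, an adhesion molecule that joins neuropilin-1 in the SEMA3A receptor, fell 8.20-fold to 2.51 ± 0.127 FPKM in siUSP32, against 20.6 ± 0.599 FPKM in siControl. ITGB1, part of the integrin that binds SEMA7A, fell 13.2-fold to 26.3 ± 3.97 FPKM in siUSP32, against 349 ± 8.34 FPKM in siControl.

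Of the proteases that cleave semaphorins or their receptors, 7 of 7 tested genes were called lower, beside 41.3% of all tested genes, with a median of -2.35. FURIN, the convertase that processes class 3 semaphorins, averaged 7.20 FPKM in siUSP32 and 25.8 FPKM in siControl, a gene named after its values were seen. ADAM10, a membrane sheddase, fell 10.9-fold to 3.30 ± 0.551 FPKM in siUSP32, against 36.1 ± 0.837 FPKM in siControl. PCSK5, another convertase, fell 7.88-fold, and MMP14, a membrane metalloproteinase that sheds SEMA4D, fell 6.91-fold. The other guidance families listed were ephrins, Eph receptors, netrins, Slits, RGM proteins and their receptors. Of these 22 genes were tested, with no Slit gene among them. Of the 22, 21 were called lower and 1 higher, beside 41.3% and 33.3% of all tested genes, with a median of -1.16. With the length correction 18 were lower and 2 higher, with a median of -0.76. EPHA10, named after its values were seen, turned from -0.18 to 0.31 (limma adjusted p = 0.00568) with that correction. EPHB2 fell 5.14-fold, the Slit receptor gene ROBO1 7.61-fold and the netrin and RGM receptor gene NEO1 8.26-fold. ROBO3 was the one called higher, with 6.06, 6.19 and 4.65 FPKM in siUSP32 and 4.36, 4.65 and 4.38 FPKM in siControl. The groups overlapped at 4.65 FPKM. Its log2 difference of 0.27 (limma adjusted p = 0.0302) was -0.04 by TPM and 0.69 with the length correction (limma adjusted p = 4.55e-04), so direction and size depended on the scaling, and the call was also lost without any single library other than siUSP32 library 3 (0.21 to 0.30, limma adjusted p = 0.0513 to 0.107).

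Of 36 tested genes for cytosolic proteins that act below plexins, 13 were called higher (36.1%), 14 lower (38.9%) and 9 did not pass, with a median of -0.09. These shares are near the 33.3% higher and 41.3% lower of all tested genes. RAC1, the GTPase bound by plexins, was at 253, 243 and 257 FPKM in siUSP32 and at 153, 146 and 137 FPKM in siControl, a 1.72-fold rise. LIMK1, the kinase of cofilin, rose 1.78-fold to 21.4 ± 0.664 FPKM in siUSP32, against 12 ± 0.387 FPKM in siControl, and MICAL2, an actin-oxidising enzyme of the family that binds plexin A, rose 1.76-fold. ARHGEF11, an exchange factor for RhoA that binds B plexins, fell 1.77-fold, and RAP1B, a substrate of the plexin GTPase-activating domain, fell 1.62-fold. Both of these calls were lost with the length correction (log2 differences -0.13 and -0.01, limma adjusted p = 0.136 and 0.871). CRMP1, a mediator of semaphorin 3A signalling, fell 1.38-fold. With the length correction 21 of the 36 were higher and 4 lower, beside 44.7% and 28.5% of all genes. FARP1 (0.33), MICAL3 (0.33), ARHGAP35 (0.30) and DPYSL3 (0.30), named after their values were seen, were called lower before that correction and higher after it. A hydrophobic segment was present in 13.2% of this list, in 94.4% of the co-receptors, in 87.5% of the proteases and in 88.1% of the other guidance families. Among the growth factors described next the share was 36.4%, beside 38.5% of all genes with a protein.

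Growth factors that bind neuropilins or the co-receptors gave 4 of 7 tested genes higher and 3 lower, beside 33.3% and 41.3% of all tested genes. With the length correction 0 were higher and 4 lower, with a median of -0.19, so the higher calls depended on the scaling. VEGFA, a ligand of neuropilin-1, was at 43.9, 41.1 and 42.8 FPKM in siUSP32 and at 36.7, 36.8 and 38.4 FPKM in siControl. Its log2 difference of 0.19 (limma adjusted p = 0.00768) was -0.18 by TPM and -0.19 with the length correction, so its direction depended on the scaling. VEGFB rose 1.35-fold and LGALS1, which encodes the neuropilin-binding lectin galectin-1, 1.45-fold, and both calls were lost with the length correction (log2 differences 0.09 and 0.03). PGF, named after its values were seen, lost its call with that correction too (0.15, limma adjusted p = 0.141). VEGFB also lost it by TPM (0.04) and LGALS1 after quantile normalization (0.01). VEGFC fell 1.30-fold, a call lost after quantile normalization (-0.02), TGFB1 fell 1.5-fold, and PDGFB fell 1.83-fold to 5.57 ± 0.555 FPKM in siUSP32, against 10.2 ± 0.164 FPKM in siControl.

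**Figure D4:**
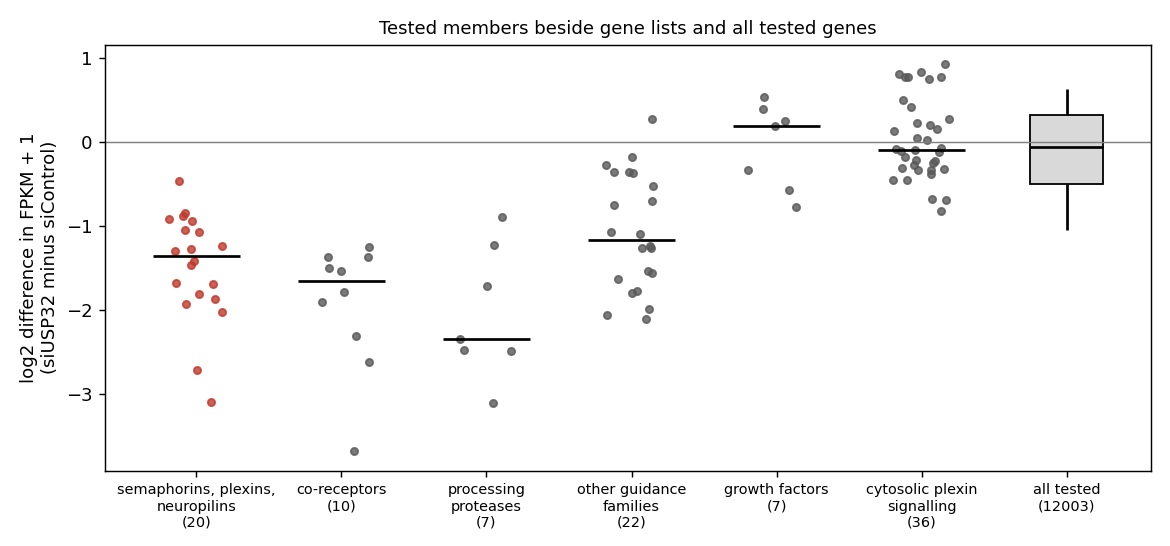
Log2 differences in FPKM + 1 (siUSP32 minus siControl) of tested genes, 1 point per gene with a line at the median, for the members, 5 lists of partner genes and all tested genes (box from the 25th to the 75th percentile, line at the median, whiskers to the 10th and 90th). Medians are -1.36 for the members, -1.66 for co-receptors, -2.35 for proteases and -1.16 for other guidance families, and lie near 0 for growth factors (0.19) and cytosolic signalling genes (-0.09).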

How the data were processed

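Sequenced RNA of MDA-MB-231 cells (3 siUSP32 and 3 siControl libraries) was analysed from 1 table of FPKM per library, as deposited by the authors, per the file headers. The values have 2 decimals. GRCh38.p13 is named as the build in the submitters' processing notes. Aligner, counter, annotation, strand handling and filters were not given in the sources used here, so reads shared between related or overlapping genes may be split in ways not known. As FPKM are not counts, count models were left out. Depth is not stated. For 98 to 119 short transcripts per library, low FPKM multiplied by annotated length clustered near the value of 1 fragment, which implies 11700000 to 12100000 fragments in siUSP32 and 11100000 to 11600000 in siControl libraries, a rough estimate whose window was chosen after seeing the values. At that depth the 8 members with the lowest levels rested on 0.191 to 4.83 fragments in siUSP32 and 0.768 to 19.2 in siControl.

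Values were log2(FPKM + 1) for genes with a mean of at least 1 FPKM, compared with limma 3.58.1 in R 4.3.3 (trend, no covariate, 2-sided, Benjamini-Hochberg over 12003 genes). Folds are ratios of mean FPKM. The same fit was tested on simulated data with known falls in a small part of the genes. In the real data most tested genes were called, in both directions, so the simulation does not cover that setting. Transcript lengths, locations and hydrophobic segments (19 residues with a mean hydropathy of at least 1.6) came from GENCODE 29 through Entrez identifiers, and length was corrected by loess (span 0.5) in each library. Named genes were all members and up to 3 called genes in each direction per list, those with the smallest adjusted p. Cell type markers and chromosomal neighbours named outside that rule were chosen after their values were seen. The members and lists were chosen with earlier results of these data known. Alternatives were other scalings, filters, pseudocounts, weights, the length correction, a replicate block and leaving out each library.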

Additional observations from a re-analysis of the deposited data

How the results depend on the processing

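Of 326 alternative values of the 20 tested members, over 17 settings, 323 kept the direction and the call, 3 kept the direction without the call, all of SEMA6B (quantile normalization, and the length correction with and without the filter), and none reversed. Members called lower were 7 at a minimum mean of 5 FPKM, where 7 were tested, and 19 to 20 without single libraries, where 0 were higher. The 19 came without siControl library 2, when PLXNA2 fell under the filter. Genes called over the whole table were 1716 higher by TPM, 3068 lower at the minimum of 5 and 7453 lower by TPM, and without single libraries 3694 to 4268 higher and 4489 to 5130 lower. TPM moved the median of all tested genes from -0.06 to -0.39. All calls split into 4001 higher and 4956 lower, into 5216 and 3635 after quantile normalization, and into 5346 and 3405 with the length correction. Without the filter but with the length correction, chosen after seeing the data, 9 members were called higher and 19 lower, with 7176 genes higher in all. At the estimated depth PLXNB3 rests on 24.9 fragments in siUSP32 and 42.6 in siControl and the others of the 9 on fewer, which limits what can be said of their direction. Each of the 9 had a lower mean FPKM in siUSP32. Genes with equal means in both groups also left 0 in this setting. UNC5C (0.00333 FPKM) was at 0.494, KDR (0.01 FPKM) at 0.420 and CD3E (0.0167 FPKM) at -0.146. The source of the 9 higher calls was not tested.

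Class medians moved in size and kept their sign. For class 3 semaphorins they were -2.14 (pseudocount 0.1), -0.91 (no filter), -3.10 (minimum 5, 1 gene), -1.80 (TPM), -1.13 (quantile), -0.97 (length) and -0.78 (length, no filter). Membrane semaphorins gave -1.84, -0.85, -1.81, -1.72, -1.02, -0.77 and -0.44 in that order, and plexins -1.74, -1.04, -1.57, -1.61, -0.98, -0.64 and -0.55, with -1.21 by median-ratio scaling. Neuropilins gave -2.59 (pseudocount 0.1), -2.75 (TPM), -2.30 (median-ratio), -2.16 (quantile), -1.83 (length) and -1.94 (length, no filter). Without single libraries the medians were -1.46 to -1.42, -1.39 to -1.304, -1.296 to -1.24 and -2.40 to -2.34 in these classes, and USP32 was at -1.59 to -1.52. Among the named genes outside the members that were followed through every alternative, VEGFA reversed by TPM (-0.18), with length (-0.19) and with length and no filter (-0.0501), ROBO3 by TPM (-0.0397), and MSN, a marker of the line, by TPM (-0.21) and quantile normalization (-0.0597). Genes of the lists that were not followed in this way also changed sign with the length correction, among them FARP1, MICAL3, ARHGAP35, DPYSL3 and EPHA10. The cause was not tested. Deviations of same-numbered libraries correlated weakly (r = -0.077, 0.071 and 0.119, beside -0.158 to 0.1 for the other pairs). No pairing by number was detected, but 3 libraries per group cannot exclude one. With the replicate number as a block 20 members were lower, as were 4979 genes. Array weights stopped before converging.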
